A study of Homo sapiens with 27 samples.

Results

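The plasminogen activator system was followed through 5 genes: PLAU, PLAT, PLAUR, SERPINE2 and SERPINB2. They were chosen by name, as the rows of a table of read counts per gene whose Entrez ID maps to these symbols, and every one of the 5 was found among the 24566 rows of the table. The rule uses gene names and no measured value, although earlier results of these data were known when the genes were proposed. The 5 genes do not make up the whole system, and other genes of it are given further on from lists by role.

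RNA was sequenced from MDA-MB-231, a widely used line from a human adenocarcinoma of the breast, and from A431, an established line from a human epidermoid carcinoma, both from a commercial repository and grown in DMEM with serum. The 27 libraries fell into 9 groups of 3 biological replicates, all harvested at 48 h. MDA-MB-231 cells were left untreated, or received Compound Kushen Injection (CKI) at 1 mg/ml, 5-FU at 10 µg/ml, or both. A431 cells were left untreated, or received a vehicle control, CKI at 1 mg/ml, doxorubicin, or CKI with doxorubicin. CKI is an injectable extract of the herbs Kushen and Baituling. 5-FU (fluorouracil) blocks thymidine synthesis, and doxorubicin is an anthracycline that damages DNA. What the vehicle control contained is not stated in the labels, no vehicle group of MDA-MB-231 was analysed here, and no dose of doxorubicin is given because the labels do not tie a dose to the libraries. Each line stands for 1 tumour.

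Plasmin, a serine protease that degrades fibrin and matrix proteins, is cut from its inactive precursor plasminogen by urokinase (PLAU) or by tissue-type plasminogen activator (PLAT). Urokinase works mostly at the cell surface, where its receptor (PLAUR), a protein anchored to the membrane by a lipid, holds it close to bound plasminogen, and it is known for its part in cell migration and invasion of carcinomas. Serpins trap the activators in inactive complexes. Among them SERPINE2 (protease nexin) is secreted and also traps thrombin, and SERPINB2 (the placental type inhibitor of urokinase) stays largely inside the cell and is known in keratinocytes and macrophages.

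Promoter sequence is shown because PLAUR and SERPINB2, a receptor and an inhibitor, both held a match to the AP-1 letters TGANTCA within 250 bases before their start sites. PLAU, which encodes the ligand of that receptor, held none. No promoter window of PLAT was searched. Each line gives the 250 bases before an annotated start, read 5′ to 3′ on the strand of the gene, from RefSeq on GRCh38.p14, and the capitals mark the AP-1 match. PLAUR is on chr19:43670170-43670419 (reverse strand), SERPINB2 on chr18:63887455-63887704 (forward strand) and PLAU, at the downstream one of its annotated starts, on chr10:73910882-73911131 (forward strand).
PLAUR: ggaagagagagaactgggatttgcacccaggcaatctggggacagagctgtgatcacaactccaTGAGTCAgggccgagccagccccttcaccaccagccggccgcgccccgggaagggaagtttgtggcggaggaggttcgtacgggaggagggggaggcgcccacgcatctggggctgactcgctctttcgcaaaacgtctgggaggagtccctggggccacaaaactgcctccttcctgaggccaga
SERPINB2: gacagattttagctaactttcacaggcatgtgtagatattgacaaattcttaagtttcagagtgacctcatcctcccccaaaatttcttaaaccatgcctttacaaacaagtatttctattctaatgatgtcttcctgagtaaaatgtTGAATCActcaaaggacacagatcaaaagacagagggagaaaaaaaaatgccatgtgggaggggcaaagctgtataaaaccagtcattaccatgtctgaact
PLAU: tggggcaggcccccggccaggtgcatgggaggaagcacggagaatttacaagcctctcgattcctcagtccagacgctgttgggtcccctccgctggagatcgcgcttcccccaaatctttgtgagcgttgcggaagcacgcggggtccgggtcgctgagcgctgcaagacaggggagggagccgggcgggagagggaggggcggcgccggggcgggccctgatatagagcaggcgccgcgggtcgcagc

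The AP-1 match lay from base -186 to base -180 of the PLAUR start and from base -102 to base -96 of the SERPINB2 start. Of all 35116 promoter windows of this length in the RefSeq table, 6.57% held at least 1 such match on either strand. Neither of the 2 windows of PLAU nor either of the 2 windows of SERPINE2 held one. SERPINB2 alone among these windows held TATAAA, from base -30 to base -25, which 10.7% of all windows held. A loose NF-kappa-B core was in PLAU, PLAUR and 1 SERPINE2 window, but 54.4% of all windows held it and several of the matches in PLAU overlap each other. The core GCGTG, read by the dioxin receptor, was in 1 window each of PLAU, PLAUR and SERPINE2 and in 32.2% of all windows, and the cyclic AMP element TGACGTCA, in 1.65% of all, was in none of the 6. These letters describe the windows of PLAU, PLAUR, SERPINE2 and SERPINB2 only, since PLAT was not searched, and binding was not measured.

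Levels are CPM, read counts scaled to the size of the library, here with TMM factors over the 27 libraries. Total counts ran from 17757206 to 22809339 per library. Replicate 1 of untreated MDA-MB-231 stood apart from the other 2 libraries of its group, with a chi-square statistic of 75.1 and 86.7 per degree of freedom against them, where the other 2 differed by 2.73. The vehicle control libraries of A431 differed among themselves by 10.4 to 29.9, and the other groups by 1.88 to 5.71. The lines carried the markers of their labels. All 9 squamous epithelial markers were higher in untreated A431 than in untreated MDA-MB-231, with KRT5 at 3560 CPM against 0.0819, while VIM, a mesenchymal marker, stood at 7.23 CPM in A431 against 1730. The immune marker PTPRC had no count in untreated A431. A difference between bulk libraries does not tell fewer expressing cells from less RNA per cell.

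**Figure D1:**
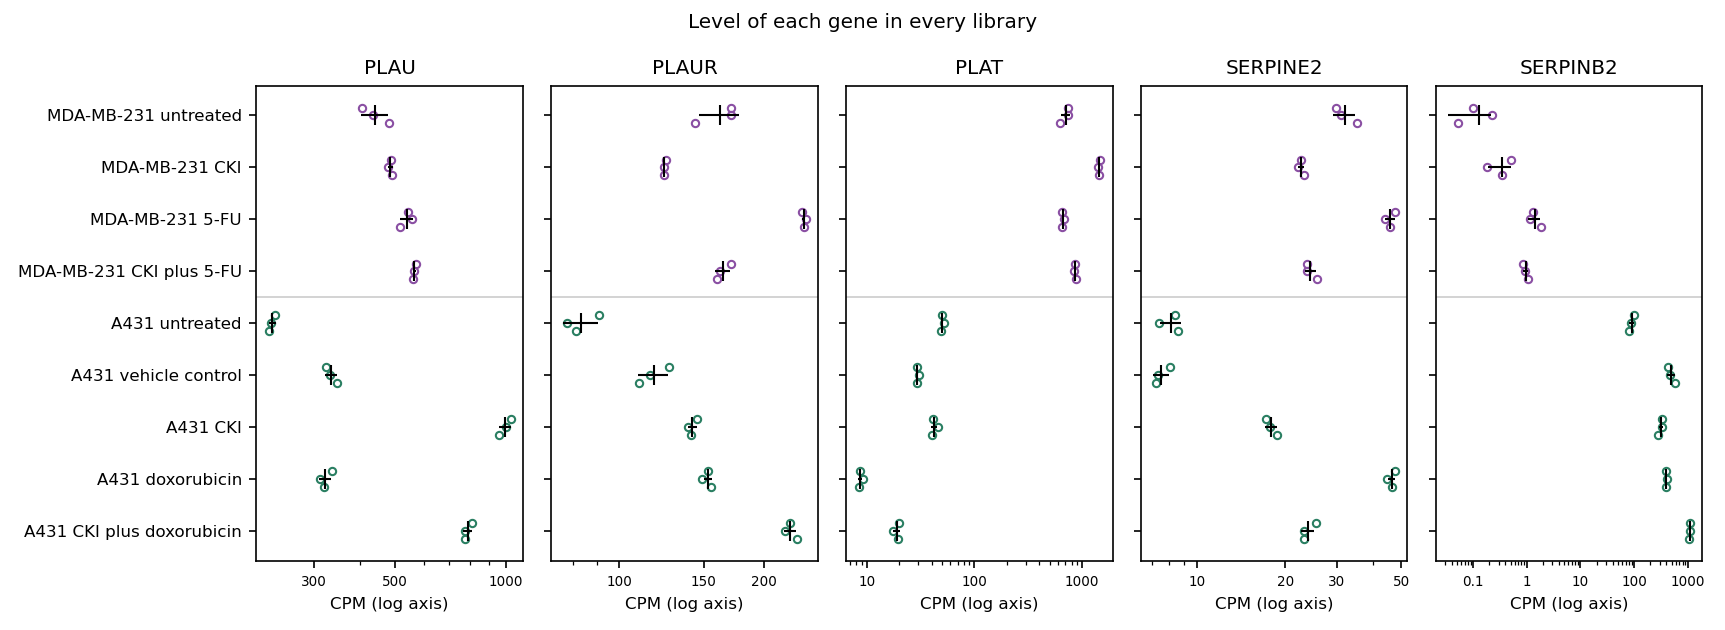
CPM of each gene (horizontal log axis, a separate range for each panel) in every library of the 9 groups, with circles for libraries, a vertical tick for the group mean and a bar for 1 SD of 3 libraries. PLAU was highest in A431 cells given CKI, PLAT was high in MDA-MB-231 only, and SERPINB2 ran from 0.127 CPM in untreated MDA-MB-231 to 1080 CPM in A431 cells given CKI with doxorubicin.

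Per kilobase of the canonical transcript, the scale on which genes can be set against each other, the lines differed in which activator was more abundant. In untreated MDA-MB-231 the level of PLAT was highest at 231 CPM per kb, followed by PLAU at 188, PLAUR at 118, SERPINE2 at 14.4 and SERPINB2 at 0.0666. In untreated A431 PLAU led at 98.4 CPM per kb, followed by PLAUR at 61.0, SERPINB2 at 47.0, PLAT at 16.3 and SERPINE2 at 3.64. SERPINB2 stood above PLAU in A431 in 3 of the treated groups. It reached 259 CPM per kb against 143 of PLAU in the vehicle control, 209 against 138 with doxorubicin, and 567 against 335 with CKI and doxorubicin. With CKI alone the order was the other way, with PLAU at 424 CPM per kb and SERPINB2 at 167.

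**Figure D2:**
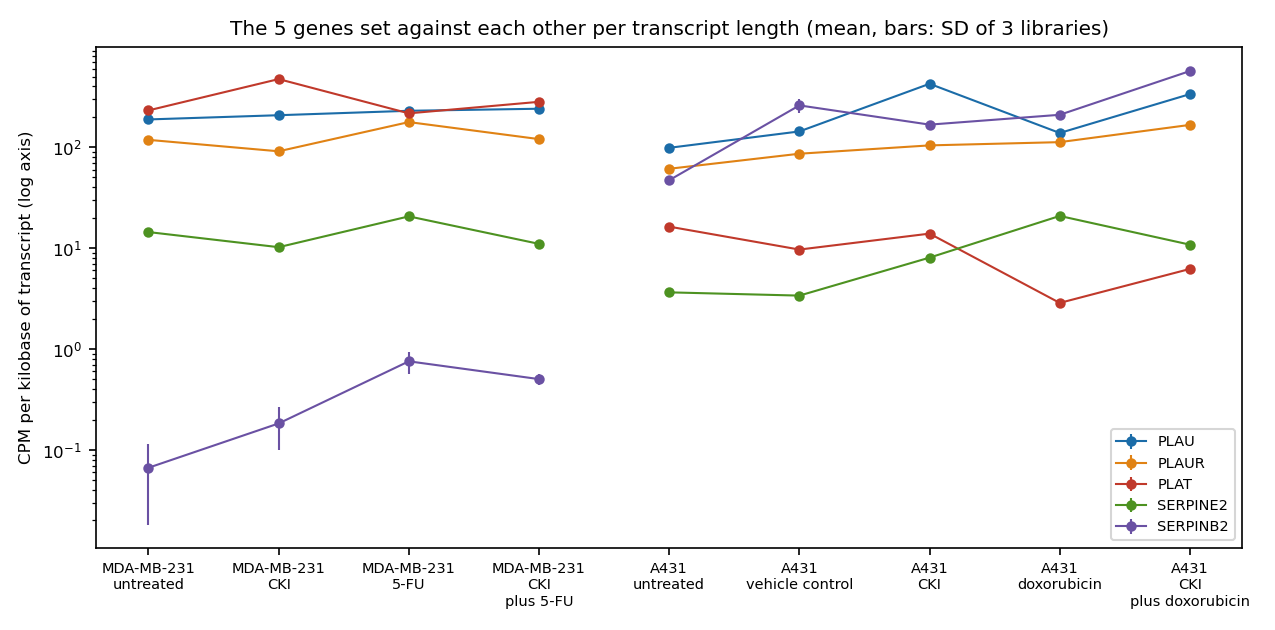
Mean CPM per kilobase of transcript (log axis) of the 5 genes in each group, with bars for the SD of 3 libraries and lines joining the groups of a cell line only as a guide. PLAT lay at or above PLAU in MDA-MB-231 except with 5-FU, where its mean was 216 against 229, and in A431 SERPINB2 and PLAU exchanged places between treatments.

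In the comparison of the untreated lines, 3 of the 5 genes passed the test (edgeR's quasi-likelihood test with Benjamini-Hochberg adjustment, a call needing an adjusted p under 0.05 and a log2 fold change beyond 1 in either direction), while 42.9% of all 14848 genes tested did so. SERPINB2 was higher in A431, and PLAT and SERPINE2 were lower. SERPINB2 entered this test only through its A431 libraries, so its call here is a description and supports nothing. SERPINB2 had 81.1, 88.6 and 99.1 CPM in untreated A431 against 1, 5 and 2 counts in untreated MDA-MB-231. Its ratio over the summed counts, 4571 against 8, was 684 with a 95% exact Poisson interval from 347 to 1590, which covers counting error only. PLAT was 13.6-fold lower in A431 (log2 fold change -3.77, SE 0.085, adjusted p = 2.1e-13) and SERPINE2 3.82-fold lower (-1.93, SE 0.098, adjusted p = 6.1e-10). PLAU (-0.89, SE 0.074) and PLAUR (-0.91, SE 0.080) were lower in every A431 library but stayed inside the fold limit of the test. With scaling by library size alone, PLAU and PLAUR passed as well, at -1.01 and -1.04.

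PLAU (Entrez ID 5328, GRCh37 chromosome 10 from 75668935 to 75677254, forward strand, 11 exons in a canonical transcript of 2343 bases) had the largest change with CKI in A431 among the 5 genes. It had 226, 230 and 236 CPM in the untreated libraries, 347, 333 and 323 in the vehicle control, and 956, 999 and 1030 with CKI. Every CKI library lay above all untreated and all vehicle libraries. PLAU rose 4.04-fold with CKI over untreated cells (log2 fold change 2.02, SE 0.054, edgeR adjusted p = 7.3e-19) and 2.77-fold over the vehicle control (1.47, SE 0.053, adjusted p = 1.3e-16). With doxorubicin PLAU had 320, 311 and 336 CPM, which is above untreated (0.46, SE 0.052, adjusted p = 4.3e-08, inside the fold limit) and overlaps the vehicle control (-0.09, SE 0.052, adjusted p = 0.12). Adding CKI to doxorubicin took it to 775, 772 and 810 CPM, a 2.47-fold rise (1.31, SE 0.052, adjusted p = 1.9e-15).

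In MDA-MB-231 PLAU varied much less. The untreated libraries had 482, 434 and 407 CPM, and replicate 1, the library that stands apart, was the highest of them. With CKI PLAU had 491, 478 and 487 CPM, which overlaps untreated (log2 fold change 0.13, SE 0.064, edgeR adjusted p = 0.14). With 5-FU it had 514, 556 and 540 CPM and with CKI and 5-FU 558, 562 and 569, all above the untreated libraries, with a log2 fold change of 0.28 (SE 0.064, adjusted p = 0.0024) for 5-FU against untreated. The response of PLAU to CKI was larger in A431 than in MDA-MB-231 by 1.90 on the log2 scale (SE 0.10, adjusted p = 3.0e-08). In the GRCh37 gene annotation used here, which may differ from that of the counts, PLAU shares 31.0% of its exonic bases with the antisense transcript C10orf55. The libraries carry no strand, so reads there cannot be assigned, and how they were counted is not stated. The row of C10orf55 held 8 to 134 counts, at most 1.88% of those of PLAU.

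PLAT (Entrez ID 5327, GRCh37 chromosome 8 from 42032236 to 42065227, reverse strand, 14 exons, transcript of 3062 bases), the activator best known from vessel walls and fibrinolysis, changed in MDA-MB-231 with CKI. It had 626, 748 and 746 CPM in the untreated libraries, of which replicate 1 was the lowest, and 1450, 1410 and 1480 CPM with CKI. The groups did not overlap, and PLAT rose 2.03-fold (log2 fold change 1.02, SE 0.067, edgeR adjusted p = 5.5e-07). That change lay at the fold limit. Without untreated replicate 1 it was 0.94 and no longer passed, with an adjusted p of 1.7e-16, and leaving out any other library gave 1.01 to 1.07. With 5-FU PLAT had 657, 674 and 655 CPM, overlapping untreated (-0.09, SE 0.067, adjusted p = 0.25). With CKI and 5-FU it had 878, 840 and 865 CPM, between the levels of the single treatments and apart from each, with 0.38 (SE 0.067, adjusted p = 0.00056) against 5-FU and -0.74 (SE 0.067, adjusted p = 1.1e-05) against CKI.

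In A431 PLAT fell with doxorubicin. It had 48.7, 51.7 and 49.6 CPM in untreated libraries, 29.3, 30.3 and 29.1 in the vehicle control, 40.7, 45.8 and 41.5 with CKI and 8.47, 9.18 and 8.59 with doxorubicin. No group overlapped another. The fall with doxorubicin was 5.83-fold from untreated (log2 fold change -2.54, SE 0.079, edgeR adjusted p = 4.5e-18) and 3.47-fold from the vehicle control (-1.80, SE 0.081, adjusted p = 3.3e-15). The value for CKI was -0.32 (SE 0.067, adjusted p = 0.00018) against untreated and 0.43 (SE 0.069, adjusted p = 1e-05) against the vehicle control, so its sign depends on the control. CKI with doxorubicin gave 19.6, 17.4 and 20.1 CPM, 2.20-fold above doxorubicin alone (1.14, SE 0.083, adjusted p = 5.5e-11) and 2.11-fold below CKI alone (-1.08, SE 0.071, adjusted p = 6.4e-12). The fall against CKI alone did not pass with scaling by library size alone (-0.87) or with genes of at least 10 counts in every library (-0.99). The response of PLAT to CKI differed between the lines by -1.34 (SE 0.11, adjusted p = 6.4e-07), and by -0.59 where the vehicle control served as the control of A431, inside the fold limit.

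PLAUR (Entrez ID 5329, GRCh37 chromosome 19 from 44150247 to 44174699, reverse strand, 7 exons, transcript of 1368 bases) passed the fold limit in none of the comparisons within a line. In A431 it had 81.3, 78.0 and 91.0 CPM untreated, 110, 116 and 127 in the vehicle control, 141, 139 and 145 with CKI, 155, 149 and 153 with doxorubicin, and 234, 221 and 227 with CKI and doxorubicin. Every treated group, the vehicle control included, lay above untreated without overlap. The log2 fold change from untreated was 0.51 (SE 0.065, edgeR adjusted p = 3.3e-06) for the vehicle control, 0.67 (SE 0.065, adjusted p = 2.9e-09) for CKI and 0.84 (SE 0.065, adjusted p = 4.5e-11) for doxorubicin. Against the vehicle control it was 0.17 (SE 0.064, adjusted p = 0.026) for CKI and 0.34 (SE 0.063, adjusted p = 4.4e-05) for doxorubicin. With offsets for GC content and length, PLAUR passed for CKI against untreated at 1.03, and it passed for doxorubicin at 1.19 with library size alone and at 1.01 with at least 10 counts in every library.

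In MDA-MB-231 PLAUR had 144, 171 and 171 CPM untreated, 124, 124 and 125 with CKI, 242, 244 and 240 with 5-FU, and 160, 162 and 171 with CKI and 5-FU. The CKI libraries were the lowest and the 5-FU libraries the highest, and the combination overlapped untreated. The log2 fold change was -0.39 (SE 0.068, edgeR adjusted p = 0.00089) for CKI and 0.58 (SE 0.068, adjusted p = 1.8e-05) for 5-FU against untreated, and -0.56 (SE 0.068, adjusted p = 3.6e-05) for the combination against 5-FU. PLAUR had values of opposite sign with CKI in the lines, and that difference, 1.07 (SE 0.11, adjusted p = 5.8e-06), passed the test. Where A431 cells of the vehicle control served as the control it was 0.56, inside the fold limit.

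SERPINE2 (Entrez ID 5270, GRCh37 chromosome 2 from 224839762 to 224904035, reverse strand, 9 exons, transcript of 2226 bases) had the largest rise with doxorubicin in A431 among the 5 genes. In A431 it had 8.60, 7.36 and 8.35 CPM untreated, 7.22, 7.30 and 8.07 in the vehicle control, 18.8, 17.7 and 17.2 with CKI, and 46.4, 44.8 and 47.6 with doxorubicin. The vehicle control overlapped untreated, and the drug groups lay above both. SERPINE2 rose 5.61-fold with doxorubicin over untreated cells (log2 fold change 2.49, SE 0.083, edgeR adjusted p = 1.6e-17) and 5.99-fold over the vehicle control. CKI raised it 2.08-fold over untreated (1.05, SE 0.089, adjusted p = 3.5e-10) and 2.22-fold over the vehicle control (1.15, SE 0.089, adjusted p = 9.7e-11). The former fell to 0.98 without untreated replicate 2 and then missed the fold limit.

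The combination did not add these changes. SERPINE2 had 23.2, 23.2 and 25.4 CPM with CKI and doxorubicin, below every doxorubicin library and above every CKI library. The interaction of CKI and doxorubicin was -1.99 on the log2 scale (SE 0.11, edgeR adjusted p = 2.2e-12), the largest in size among the 5 genes in A431. In MDA-MB-231 SERPINE2 had 35.2, 31.1 and 29.9 CPM untreated, 23.2, 22.1 and 22.7 with CKI, 45.7, 44 and 47.6 with 5-FU, and 25.7, 23.8 and 23.7 with CKI and 5-FU. Libraries with CKI were below untreated and those with 5-FU above, with -0.51 (SE 0.074, adjusted p = 0.00024) and 0.51 (SE 0.072, adjusted p = 7.3e-05), both inside the fold limit. The change with CKI was 1.57 higher in A431 than in MDA-MB-231 (SE 0.13, adjusted p = 1e-06).

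SERPINB2 (Entrez ID 5055, GRCh37 chromosome 18 from 61538926 to 61571122, forward strand, 8 exons, transcript of 1906 bases) was raised over untreated A431 cells in every other A431 group, the vehicle control among them. It had 81.1, 88.6 and 99.1 CPM untreated, 582, 466 and 430 in the vehicle control, 284, 333 and 337 with CKI, 391, 409 and 393 with doxorubicin, and 1050, 1110 and 1080 with CKI and doxorubicin. None of these groups overlapped another. The rise in the vehicle control was 5.54-fold (log2 fold change 2.47, SE 0.096, edgeR adjusted p = 3.5e-15) and stayed between 2.33 and 2.56 when any library of the 2 groups was left out. In the gene annotation used here SERPINB2 shares 20.0% of its exonic bases with another protein-coding gene on the same strand. That gene has no row among the counts, and how reads there were counted is not stated.

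Against untreated cells SERPINB2 rose 3.33-fold with CKI (1.74, SE 0.094, adjusted p = 1.3e-13) and 4.35-fold with doxorubicin (2.12, SE 0.095, adjusted p = 2.8e-15). Against the vehicle control the sign was reversed, with -0.73 (SE 0.089, adjusted p = 1.6e-07) for CKI and -0.35 (SE 0.089, adjusted p = 0.0011) for doxorubicin, both inside the fold limit. The combination raised SERPINB2 2.76-fold over doxorubicin (1.46, SE 0.090, adjusted p = 3e-12) and 3.60-fold over CKI (1.85, SE 0.091, adjusted p = 3.8e-14), comparisons that use no untreated or vehicle library. Its interaction was -0.27 (SE 0.13, adjusted p = 0.074) with untreated cells as the control and 2.20 (adjusted p = 2.6e-12) with the vehicle control in their place. Which of the 2 control groups matches the solvent of each drug is not stated in the labels.

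**Figure D3:**
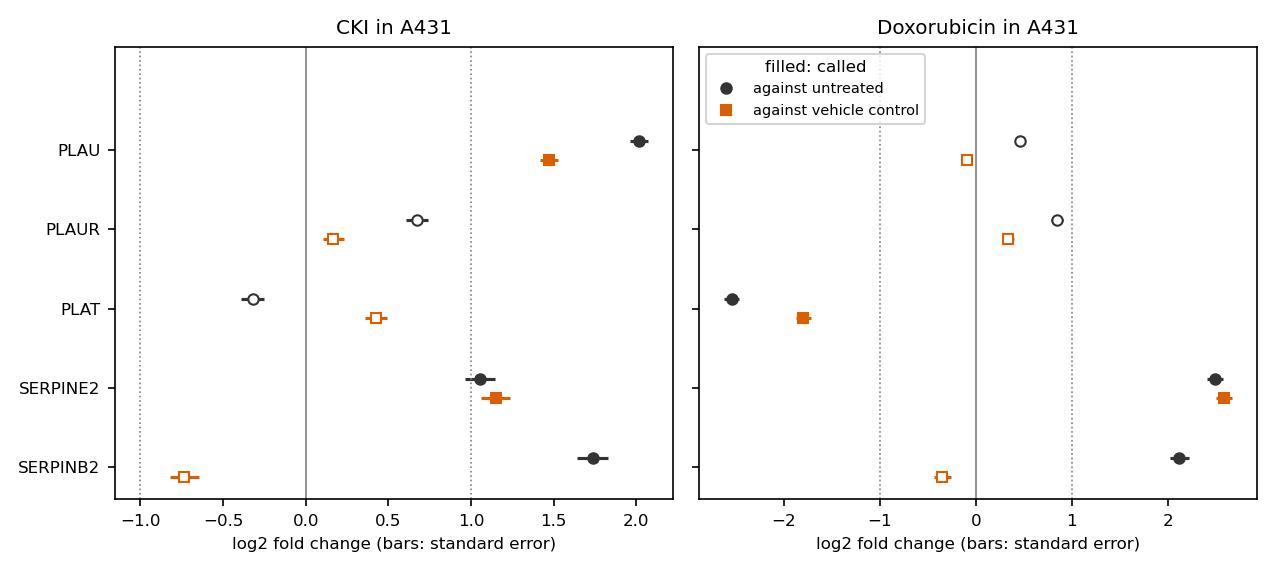
Log2 fold change (bars: SE) of the 5 genes with CKI (left) and doxorubicin (right) in A431, against untreated libraries (circles) and vehicle control libraries (squares), with filled symbols for those that passed the test and dotted lines at the fold limit. PLAU with CKI, SERPINE2 with either drug and PLAT with doxorubicin passed against both controls, while SERPINB2 stood at 1.74 and 2.12 against untreated and at -0.73 and -0.35 against the vehicle control.

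In MDA-MB-231 SERPINB2 was close to the limit of detection. It had 1, 5 and 2 counts untreated, 7, 4 and 10 with CKI, 40, 24 and 28 with 5-FU, and 23, 21 and 18 with CKI and 5-FU, and it entered the test only through the groups with 5-FU. The summed ratio to untreated was 11 with 5-FU (95% exact Poisson interval 5.38 to 26.4), 7.33 with the combination (3.5 to 17.7) and 2.63 with CKI (1.12 to 6.87). A gene that is tested only because of the groups where it is high had to differ, so its calls in MDA-MB-231 are given as a description and support nothing: the fitted log2 fold change was 3.41 with 5-FU (SE 0.42, edgeR adjusted p = 2.7e-05), 1.47 for the combination against CKI (SE 0.37, adjusted p = 0.0077) and 1.35 with CKI (SE 0.56, adjusted p = 0.081). With so few counts single libraries decided: without untreated replicate 2, which held 5 of the 8 untreated counts, the change was 4.14 with 5-FU and 2.09 with CKI, and the latter then passed (adjusted p = 0.037), as it did without CKI replicate 2 (1.67, adjusted p = 0.043). Its level with 5-FU, 1.44 ± 0.36 CPM (SD, n = 3), remained far below the 89.6 CPM of untreated A431.

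Some squamous markers rose with 5-FU in MDA-MB-231, as these SERPINB2 counts did. Of the 6 tested there, KRT5 and KRT17 were called higher with 5-FU, beside 13.3% of all genes called. The summed level of all 9 was 465 to 494 CPM with 5-FU against 497 to 607 untreated. KRT5 was also higher with CKI, and for CKI with 5-FU against 5-FU, KRT17 and SFN were lower and EGFR higher. SERPINB2 passed in neither of those comparisons. KRT5, with at most 2 counts in an untreated library, entered the test only through treated groups, as SERPINB2 did. Its calls are therefore a description too and support nothing. KRT14 and KRT6A were not among the markers that passed with 5-FU. KRT5 had 86, 17 and 25 counts in the 5-FU libraries and 2, 2 and 1 in the untreated ones, KRT14 had 50, 9 and 7 against 5, 1 and 1, and KRT6A had 42, 9 and 8 against 1, 1 and 0. Replicate 1 of 5-FU was the highest in each, as it was for SERPINB2. DSG3, another marker, had no count in any untreated library. Without that replicate the change of SERPINB2 was 3.20 (adjusted p = 0.00016). The part of the marker counts in the SERPINB2 result was not tested.

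**Figure D4:**
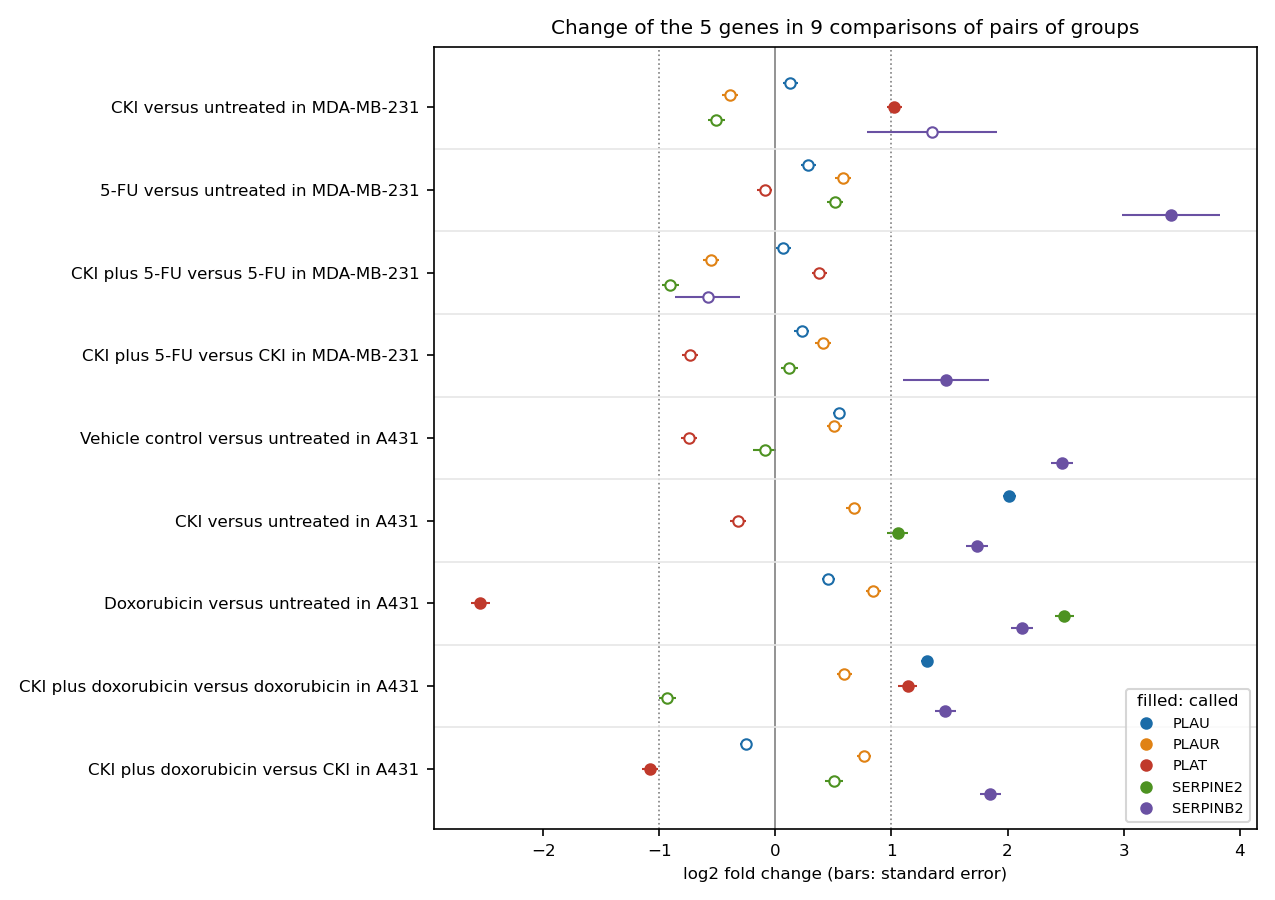
Log2 fold change (horizontal axis, bars: SE) of the 5 genes in 9 comparisons of pairs of groups, with filled circles for genes that passed the test and dotted lines at the fold limit of 1 in either direction. In A431 the filled circles are PLAU, SERPINE2, SERPINB2 and PLAT, and in MDA-MB-231 they are PLAT with CKI and SERPINB2 in the comparisons that add 5-FU.

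Counted over the comparisons, few of the 5 genes passed in MDA-MB-231, and every call of SERPINB2 there comes with the limit just given. With CKI 1 of the 5 passed (PLAT), where 5.96% of all 13999 genes tested did, and with 5-FU 1 of the 5 passed (SERPINB2), where 13.3% of all genes did. For CKI with 5-FU against 5-FU alone none of the 5 passed in edgeR's quasi-likelihood test and 9.77% of all genes did, although SERPINE2, PLAUR and PLAT had an adjusted p under 0.05 there. Against CKI alone 1 of the 5 passed (SERPINB2) and 3.81% of all genes. The interaction of CKI with 5-FU passed for 1 of the 5 (SERPINB2, -1.94, SE 0.63, adjusted p = 0.035) and 6.84% of all genes, and that call was lost without any one of 7 of the 12 libraries.

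In A431 more of the 5 passed, and more of all genes did. In the vehicle control 1 of the 5 passed (SERPINB2) where 2.54% of all 15881 genes tested did, which was the smallest share of all genes in any A431 comparison. With CKI 3 of the 5 passed (PLAU, SERPINB2, SERPINE2), all higher, where 22.4% of all genes passed. With doxorubicin 3 of the 5 passed (SERPINB2 and SERPINE2 higher, PLAT lower) where 37.3% of all genes did. Against the vehicle control 2 of the 5 passed with CKI (PLAU, SERPINE2), beside 19.5% of all genes, and 2 with doxorubicin (SERPINE2, PLAT), beside 38.5%. These comparisons share control libraries and are not independent of each other.

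For the combination, 3 of the 5 passed against doxorubicin (PLAU, PLAT and SERPINB2, all higher), beside 14.9% of all genes, and 2 against CKI (SERPINB2 higher, PLAT lower), beside 25.7%. The interaction of CKI and doxorubicin passed for 2 of the 5 (PLAT 1.46, SERPINE2 -1.99), beside 19.5% of all genes. With the vehicle control as the control group the value of PLAT was 0.716 and did not pass, and that of SERPINE2 was -2.08. SERPINE2 rose less with doxorubicin in the presence of CKI. The interaction of cell line and CKI passed for 4 of the 5 (PLAU, PLAUR and SERPINE2 higher in A431, PLAT lower), beside 18.5% of all genes, and SERPINB2 did not pass it (0.40, SE 0.67, adjusted p = 0.67). The median log2 fold change of the 5 genes over untreated cells was 1.05 with CKI and 0.84 with doxorubicin in A431. That of all genes tested was 0.003 and 0.017. Over the vehicle control the median of the 5 was 0.425 with CKI and -0.089 with doxorubicin, and that of all genes 0.003 and -0.004.

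Across the 9 groups the order of levels was firm for some genes only. The mean of PLAU fell from 994 CPM in A431 with CKI through 786 with CKI and doxorubicin to 563 in MDA-MB-231 with CKI and 5-FU, each apart from the next, while its neighbours in order, the vehicle control (334) and doxorubicin (322) in A431, overlapped, as did CKI (485) and untreated (441) in MDA-MB-231. For PLAT the 4 MDA-MB-231 groups (662 to 1450 CPM) all lay above the 5 A431 groups (8.74 to 50), and only untreated and 5-FU in MDA-MB-231 overlapped. SERPINE2 was as high in A431 with doxorubicin (46.3) as in MDA-MB-231 with 5-FU (45.8), the groups overlapping. For PLAUR the combination and untreated groups of MDA-MB-231 (164 and 162) and doxorubicin in A431 (153) overlapped as neighbours. SERPINB2 was apart between every pair of neighbours except CKI and untreated in MDA-MB-231.

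After each library was centred on the mean of its line, the genes whose log2 CPM ran most like that of each gene over the 27 libraries were listed from 16669 expressed genes, as a description. They share libraries and depth with it. For PLAU these were DYNLT3 (r = 0.974), PANK3 (0.972) and ACSL4 (0.969). For PLAUR they were TRIM38 (0.932), ZNF160 (0.931) and ZBTB43 (0.926), and for SERPINB2 ZBTB43 (0.903), ARRDC4 (0.90) and ZNF808 (0.899), so ZBTB43 was in both lists. For PLAT they were TALDO1 (0.961), SLC38A10 (0.960) and CCM2 (0.955), and for SERPINE2 MAP1LC3B (0.963), MIR137HG (0.960) and COL11A2 (0.957). Among the 5 genes themselves, PLAUR and SERPINB2 had the highest r over both lines (0.788) and in A431 (0.895), while in MDA-MB-231, where theirs was 0.621, PLAUR and SERPINE2 had the highest (0.870). PLAT ran opposite to SERPINE2 (-0.82, -0.83 and -0.80), and PLAU and PLAT were nearly unrelated (0.03).

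Other genes of the system were taken from lists by role. Plasminogen (PLG) itself had no count in any MDA-MB-231 library and at most 1 count in an untreated, vehicle or CKI library of A431. It had 4, 13 and 7 counts with doxorubicin and 14, 10 and 10 with CKI and doxorubicin, against 0 in each CKI library, at least 10.2-fold higher than CKI alone when the floor is 3 counts over the group. Of the surface receptors of plasminogen, ENO1 fell with doxorubicin, and PLGRKT, ANXA2 and S100A10 passed in none of the 15 comparisons.

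Of the proteases that activate prourokinase or plasminogen, ST14 (matriptase) and F12 (coagulation factor XII) were higher in untreated A431 than in untreated MDA-MB-231, and ST14 had the largest such difference in this list (log2 fold change 8.0, SE 0.16, edgeR adjusted p = 7.7e-14). With CKI in A431 F12 alone passed, where 22.4% of all genes did. It was lower (-1.04, SE 0.13, adjusted p = 1.5e-07), but stood at -0.45 against the vehicle control, where no protease of the list passed, and it also missed the fold limit without CKI replicate 1 and with GC and length offsets. With doxorubicin CTSL (cathepsin L) and KLKB1 (prekallikrein) rose. KLKB1 had 11, 16 and 15 counts with doxorubicin and 0 in each untreated library, at least 11.8-fold higher at the same floor. With CKI and doxorubicin it had 27, 22 and 20 counts against 0 in each CKI library, at least 20.6-fold higher.

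Of 7 other inhibitors tested in A431, 5 passed with doxorubicin: PZP, SERPINF2 (the main plasmin inhibitor of blood), SERPING1 and SERPINI1 (neuroserpin, an inhibitor of PLAT) were higher and SERPINA5 (protein C inhibitor) was lower, beside 37.3% of all genes. PZP had 2, 0 and 0 counts untreated and entered the test through the doxorubicin groups. SERPING1 stood at 0.72 against the vehicle control and lost its call, as it did without untreated replicate 1 or doxorubicin replicate 1. SERPINI1 had 2.12 ± 0.548 CPM (SD, n = 3) untreated and 53.0 ± 2.0 with doxorubicin (log2 fold change 4.61, SE 0.13, edgeR adjusted p = 9.5e-19), and 20.9 ± 0.711 with CKI and doxorubicin, -1.32 from doxorubicin (SE 0.091, adjusted p = 2e-11). Like SERPINE2, SERPINI1 had a negative interaction of CKI and doxorubicin (-1.32, SE 0.22, adjusted p = 2.4e-05), as had SERPINF2 (-1.87, SE 0.42, adjusted p = 0.00051), and SERPINA5 a positive one (1.89, SE 0.45, adjusted p = 0.0011). The value of SERPINA5 rests on low counts, with 9, 5 and 4 with doxorubicin and 10, 21 and 10 with CKI and doxorubicin. SERPINF2 was also lower with CKI and doxorubicin than with doxorubicin (-1.70, SE 0.26, adjusted p = 7e-06). PZP had 13 counts in each library of the combination and none with CKI, at least 11.7-fold higher at the floor of 3 counts. With CKI alone SERPING1 passed (2.0, SE 0.55, adjusted p = 0.0029) from 0, 7 and 4 counts to 11, 27 and 15, with values from 1.44 (without untreated replicate 1) to 2.79 (without untreated replicate 2). It also passed against the vehicle control (1.13, SE 0.48, adjusted p = 0.042) and differed between the lines in its response (2.96, SE 0.87, adjusted p = 0.013). SERPING1 had at most 9 counts in any untreated or vehicle library of A431 and was tested there through the drug groups. Its calls with CKI and with doxorubicin are therefore a description and support nothing. PZP, PLG and KLKB1 had no count in the vehicle control either, and since they were tested only through the doxorubicin groups their calls support nothing further. In MDA-MB-231 SERPINA5 fell with 5-FU (-2.35, SE 0.27, adjusted p = 1.6e-05). A2M had at most 20 counts in any MDA-MB-231 library, and its calls there were lost without single libraries. SERPINA5 had a positive interaction of CKI and 5-FU (1.76, SE 0.40, adjusted p = 0.0063).

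Of 8 receptors that clear urokinase complexes or bind urokinase or its receptor, 8 were tested in A431 and 7 in MDA-MB-231. IGF2R, which also binds PLAUR, passed with CKI in A431 (195 ± 9.44 to 688 ± 6.11 CPM, log2 fold change 1.73, SE 0.058, edgeR adjusted p = 3.5e-17) and against the vehicle control (1.39, SE 0.057, adjusted p = 1.2e-15), and its response differed between the lines by 1.61 (SE 0.16, adjusted p = 3.7e-06). With doxorubicin LRP1, LRP8 and SORL1 were lower and LRP2 and VLDLR higher, beside 37.3% of all genes, and VLDLR (1.06, adjusted p = 0.051) lost its call against the vehicle control. LRP2 (megalin) had 28, 29 and 22 counts with doxorubicin against 2, 0 and 0 untreated and, like PZP, was tested only through the doxorubicin groups. Its fitted change of 4.82 went to 7.65 without untreated replicate 1. With 5-FU in MDA-MB-231, LRP8, MRC2, SORL1 and VLDLR were lower, beside 13.3% of all genes, LRP8 by the most (38.7 ± 3.23 to 10.8 ± 0.696 CPM, -1.84, SE 0.082, adjusted p = 9.7e-09), and LRP8 was higher again when CKI was added (1.76, SE 0.082, adjusted p = 2.1e-08). MRC2 (-1.27, SE 0.20, adjusted p = 0.00048) and LRP1 (-1.17, SE 0.26, adjusted p = 0.0040) were lower with CKI and 5-FU than with CKI. With GC and length offsets MRC2 missed the fold limit in both of these comparisons.

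Among vitronectin and the integrin partners of PLAUR, 3 of 6 tested were higher with CKI in A431 (ITGAV, ITGB1, ITGB3), beside 22.4% of all genes. Against the vehicle control ITGAV, ITGB3 and ITGA3 passed and ITGB1 stood at 0.76. The call of ITGB3 over untreated was lost without untreated replicate 1 or 3 or CKI replicate 2, with values down to 0.97. With CKI and doxorubicin against CKI, 4 of 6 were lower (ITGA3, ITGAV, ITGB1, ITGB5) and ITGB3 was higher, beside 25.7% of all genes. ITGB3, of 0.211 ± 0.107 CPM untreated, also passed for CKI against the vehicle control (1.34, SE 0.50, edgeR adjusted p = 0.022). At so low a level ITGB3 was tested in A431 only through the drug groups, so its calls there are a description and support nothing. VTN, the matrix ligand of PLAUR, had 7, 13 and 16 counts in untreated MDA-MB-231 and 3, 2 and 1 with CKI (-2.52, SE 0.62, adjusted p = 0.0074). The CKI libraries were too low to bring VTN into the test, so this call is a description and supports nothing.

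SERPINB2 lies in a cluster of clade B serpin genes on chromosome 18 of GRCh37, 10 of which were followed here from SERPINB5 (from 61144191) to SERPINB8 (to 61687013), with SERPINB2 the eighth in order. Beside SERPINB2, 6 of the 7 others tested were higher in untreated A431 than in untreated MDA-MB-231, where 22.5% of all genes were higher. SERPINB13 had no count in untreated MDA-MB-231 and 77.1 ± 2.70 CPM (SD, n = 3) in A431. SERPINB13 and SERPINB10 had no count in the untreated and CKI libraries of MDA-MB-231. Like SERPINB2, they were tested between the lines only through A431, so these calls had to be higher and support nothing. SERPINB5 (maspin) differed by 9.53 (SE 0.25, edgeR adjusted p = 7.7e-13). A difference of this size leaves SERPINB5 near the floor in untreated MDA-MB-231. It too was tested through A431, so its call supports nothing. SERPINB7, next before SERPINB2, was the only other one to pass in the vehicle control (1.05, SE 0.19, adjusted p = 0.00014). Its change lay at the fold limit and missed it with offsets for GC content and length (0.85), without untreated replicate 2 (0.93) and without vehicle control replicate 1 (0.965).

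SERPINB7 also passed with CKI in A431 (1.70, SE 0.17, edgeR adjusted p = 8.6e-09), with CKI added to doxorubicin (2.05, SE 0.16, adjusted p = 2.9e-10), and with CKI in MDA-MB-231 (2.37, SE 0.26, adjusted p = 2.8e-05), from 16, 10 and 17 counts to 71, 66 and 88. With CKI against the vehicle control SERPINB7 stood at 0.65 (SE 0.15, adjusted p = 0.00062), inside the fold limit, and none of these neighbours passed. Its response to CKI was smaller in the presence of 5-FU (interaction -1.71, SE 0.34, adjusted p = 0.0030). With doxorubicin SERPINB10, next after SERPINB2, was higher and SERPINB3 and SERPINB4 were lower, beside 37.3% of all genes, and SERPINB4 lost its call against the vehicle control (-0.68), with RLE factors and without doxorubicin replicate 1. SERPINB3 was lower with CKI in MDA-MB-231 (-3.35, SE 0.51, adjusted p = 0.00033), and its response differed between lines (3.33, SE 0.47, adjusted p = 6.8e-05). SERPINB3 and SERPINB4 are near-identical copies, so reads may be split between them and their values are uncertain.

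**Figure D5:**
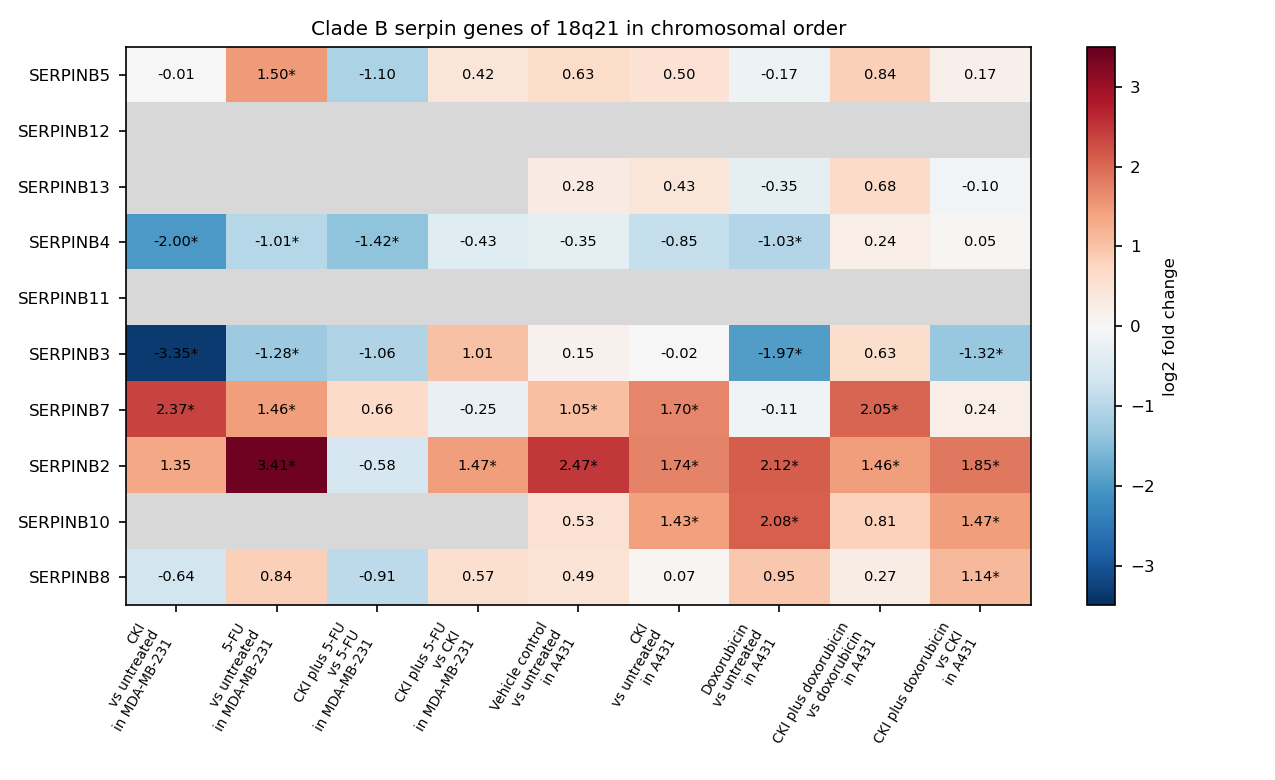
Log2 fold change (colour and number, asterisk where the test was passed) of the clade B serpin genes of 18q21 in chromosomal order, in 9 comparisons, with grey for genes too low to be tested. SERPINB2 is the only row with an asterisk in all of the A431 columns, SERPINB7 has one in 3 of the 5, and SERPINB12 and SERPINB11 were not tested in either line.

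Markers of other cell types were read beside these results. PTPRC, a leukocyte marker with no count in untreated A431, had 26, 31 and 23 counts with doxorubicin, at least 22.4-fold higher at the floor of 3 counts over the group. It had no count in the vehicle control or with CKI either and was tested only through the doxorubicin groups, so its call supports nothing. Of 2 immune markers tested in A431, 1 passed with doxorubicin, beside 37.3% of all genes. CD14, a monocyte marker, was lower in MDA-MB-231 with 5-FU (-1.42, SE 0.12, edgeR adjusted p = 1.3e-06) and with CKI and 5-FU against CKI (-1.07, SE 0.13, adjusted p = 6.9e-05). VWF, an endothelial marker, went from 1.31 ± 0.154 CPM untreated to 31.9 ± 1.64 with CKI in A431 (log2 fold change 4.5, SE 0.13, edgeR adjusted p = 3.9e-18), while CDH5, the other endothelial marker, fell (-1.20, SE 0.11, adjusted p = 7.8e-10), and the sum of VWF and CDH5 went from 21.9 to 25.1 CPM to 40.4 to 42.9. Of the squamous markers in A431, 6 of 9 passed with doxorubicin (KRT14 and KRT17 higher, DSG3, EGFR, KRT5 and TP63 lower), beside 37.3% of all genes, and their sum was 8470 to 8640 CPM against 9820 to 10800 untreated. Of the 6 mesenchymal markers, CAV1 and VIM were lower with CKI in both lines, and with doxorubicin in A431 SPARC and VIM were higher and CAV1 and MSN lower. The sum of the 6 went from 1160 to 1290 CPM in untreated A431 to 499 to 516 with doxorubicin, and in MDA-MB-231 from 4460 to 4710 CPM untreated to 2970 to 3080 with CKI. The part of these markers in the changes of PLAU, PLAT, SERPINE2 and SERPINB2 was not tested.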

How the data were processed

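RNA was sequenced from 27 libraries, 3 per group, as unstranded paired-end libraries. Per the submitters' processing notes, reads were trimmed with Trim Galore 0.3.7 and aligned with STAR 2.5.3a to hg19. The counting tool and annotation are not given in the sources used here. The authors deposited raw read counts per Entrez gene, one table column per library, with no normalization. The members and the gene lists were chosen with earlier results of these data known. Counts were fitted with edgeR 4.0.16 in R 4.3.3 (filterByExpr, TMM factors, quasi-likelihood test), in 1 fit per cell line and 1 fit across both lines of their untreated and CKI libraries. The p-values were adjusted over all genes tested with the Benjamini-Hochberg method, and a gene was called at an adjusted p under 0.05 with an absolute log2 fold change over 1. The standard error is that of the fitted log2 fold change. Other genes were named from lists by role, at most the 3 largest called changes per comparison. Levels are CPM with TMM factors over the 27 libraries, and those between genes are per kb of the canonical transcript of GRCh37. Alternatives were DESeq2 1.42.0, RLE factors, library size alone, edgeR's likelihood ratio test, other filters, no fold limit, the compared groups alone, a replicate block, offsets for GC content and length, leaving out each library, and the vehicle control as the control group. Scripts were tested on simulated counts. Intervals and floors cover counting error only. One marker of immune cells, and the sum of that marker list, are not reported here.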

Additional observations from a re-analysis of the deposited data

Results flagged for a closer look

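Of the interactions tested for the 5 genes, 10 had an adjusted p under 0.05 in edgeR's quasi-likelihood test. In these the effect of CKI differed with the second drug or between the lines. At that threshold alone 31.4% of all genes passed for CKI and 5-FU, 57.4% for CKI and doxorubicin, and 47% for cell line and CKI. The 10 interactions share libraries and are not independent.

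For CKI and 5-FU in MDA-MB-231 these were PLAT (-0.645, SE 0.094, adjusted p = 0.00041), SERPINE2 (-0.396, SE 0.10, adjusted p = 0.013) and SERPINB2 (-1.936, SE 0.63, adjusted p = 0.035), the last from low counts. For CKI and doxorubicin in A431 they were PLAU (-0.711, SE 0.073, adjusted p = 2.4e-08), PLAT (1.463, SE 0.11, adjusted p = 1e-10) and SERPINE2 (-1.986, SE 0.11, adjusted p = 2.2e-12). With the vehicle control as control group the values were -0.165 for PLAU (adjusted p = 0.057), which then misses the threshold, 0.716 for PLAT and -2.079 for SERPINE2.

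For the cell line and CKI they were PLAU (1.897), PLAUR (1.07), PLAT (-1.34) and SERPINE2 (1.57). Where the vehicle control served for A431, the values were 1.351 for PLAU, 0.563 for PLAUR, -0.593 for PLAT and 1.664 for SERPINE2. MDA-MB-231 had no vehicle control analysed here, so that setting changes the control of 1 line only.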

How the results depend on the processing

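For the 5 genes, 1128 of 1197 values under an alternative kept the direction and the side of the threshold, 15 lost the call, 43 gained one and 11 turned direction. For the other genes of the system 1870 of 1995 kept both and 125 lost the call. Levels moved by a ratio of 0.904 to 1.128 with library size alone and of 0.97 to 1.067 with RLE factors. Library size alone moved the median log2 fold change of all genes from 0.017 to 0.361 for doxorubicin and from 0.055 to 0.261 for CKI with doxorubicin against CKI.

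The direction turned with the vehicle control as control group for PLAT with CKI (0.425), SERPINB2 with CKI (-0.734) and doxorubicin (-0.349), PLAU with doxorubicin (-0.089), the interaction of CKI and doxorubicin for PLAUR (0.426) and SERPINB2 (2.198), and that of cell line and CKI for SERPINB2 (-2.074). It also turned for PLAT with 5-FU with library size alone (0.037), for the interaction of CKI and 5-FU of PLAU with GC and length offsets (0.004, and 0.002 with the replicate block), and for the cell line interaction of SERPINB2, which ran from -0.332 (without MDA-MB-231 untreated replicate 2) to 0.755 when 1 library was left out. Beyond the change of control itself, the cause was not tested.

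With no fold limit the number of the 5 genes called in MDA-MB-231 was 3 for CKI, where 36.2% of all genes passed, and 4 for 5-FU (57.1%). It was 3 for the combination against 5-FU (50.4%), 4 against CKI (42.1%) and 3 for the interaction (31.4%). In A431 it was 4 for the vehicle control (42.5%) and 5 for CKI (67%). It was also 5 for doxorubicin (80.6%) and for the combination against doxorubicin (63.6%) or CKI (73.3%). All 5 passed between the untreated lines, beside 78.6% of all genes. With at least 10 counts in every library SERPINB2 was not tested in MDA-MB-231, which left 0 for 5-FU, for the combination against CKI and for the interaction, and 1 for the combination against CKI in A431. Library size alone gave 1 for that last comparison and 5 for the untreated lines, GC and length offsets 5 for the untreated lines, also with the replicate block, and the likelihood ratio test 2 for CKI in MDA-MB-231. Leaving out 1 library gave 0 to 2 for CKI in MDA-MB-231 (0 without untreated replicate 1) and 0 to 1 for the interaction of CKI and 5-FU.

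Same-numbered libraries did not deviate together over all genes (mean r of -0.03 in MDA-MB-231 and -0.01 in A431). With 3 libraries per group this shows no strong shared deviation and cannot tell whether the numbers mark a pairing. With the replicate block the interaction of CKI and 5-FU had 0 of the 5 genes called (SERPINB2 -1.92, adjusted p = 0.052), and the block alone changed no other count of them.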
